A study of Mus musculus with 2 samples.

Results

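The cells described here were mural cells of healed mouse skin wounds that carried more of the transcripts *Cox4i2*, *Cyp4b1*, *Olfr558* and *Nrip2* than of *Il6*, *H2-M9*, *Gm13889* and *Gucy1a3*. They are called *Cox4i2*-type mural cells after their leading gene. They were chosen from the transcript counts of each cell, in 3 steps. Cells with at most 10% mitochondrial UMIs (unique molecular identifiers, each standing for 1 captured transcript) were kept. A kept cell was called mural when it held at least 1 UMI of at least 3 of 7 genes (*Rgs5*, *Notch3*, *Higd1b*, *Ndufa4l2*, *Des*, *Kcnj8* and *Abcc9*) and at most 2 UMIs of *Pdgfra*, *Pecam1* and *Sox10* together. A mural cell was *Cox4i2*-type when more of the first set of 4 genes than of the second set of 4 were detected in it, *Il6*-type in the reverse case, and tied when the numbers were equal. Of 4648 kept cells, 447 were mural, and of these 170 were *Cox4i2*-type, 131 were *Il6*-type and 146 were tied.

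The cells came from a single-cell RNA sequencing experiment on Tomato+ dermal cells sorted from healed wounds, with 1 library of control mice and 1 library of *SM22-SmoM2* mice. The control mice carried SM22rtTA, tetO-Cre and R26-Tomato. The *SM22-SmoM2* mice carried the same SM22rtTA and tetO-Cre with R26-SmoM2/Tomato, in which Cre also switches on SmoM2, a constantly active form of the Hedgehog signal transducer Smoothened. The mice of both groups are labelled as 4 to 5 weeks old, were given doxycycline at 20 g/kg in the food from day 1 after wounding, and were sampled 3 days after the wound had closed over. In both groups the SM22α promoter, which is active in smooth muscle and in wound myofibroblasts, drove the rtTA that switched Cre on, so only cells that had used this promoter under doxycycline, and their progeny, could be labelled. Wounds of several mice were pooled for each library. Neither recombination nor the SmoM2 transgene was measured, so Tomato, not SmoM2, defined the sorted cells. With 1 library per condition there were no replicates, and no test between conditions was possible. All intervals below are 95% intervals for counting error only.

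Mural cells wrap the endothelial tube of blood vessels. Pericytes cover capillaries and the small vessels on either side of them, and vascular smooth muscle cells ring arteries and veins, where calcium-driven myosin contraction narrows the vessel and nitric oxide, through soluble guanylate cyclase and cyclic GMP, relaxes it. In skin, mural cells respond to Notch ligands and platelet-derived growth factor from the endothelium, and during wounding they can release chemokines that draw in leukocytes.

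The control library held 134 *Cox4i2*-type cells among 338 mural cells and 2856 kept cells, and the *SM22-SmoM2* library held 36 among 109 mural cells and 1792 kept cells. *Cox4i2*-type cells thus made up 39.6% of mural cells in control wounds (exact binomial interval 34.4 to 45.1) and 33.0% in *SM22-SmoM2* wounds (24.3 to 42.7), and these intervals overlapped. After every cell was thinned to 2500 UMIs and sorted again by the same rule, the shares were 37.9% and 35.2%. Mural cells as a whole were 11.8% of kept control cells (10.7 to 13.1) and 6.08% of kept *SM22-SmoM2* cells (5.02 to 7.29), a share that the sort on Tomato also sets. The *Cox4i2*-type cells held 1026271 UMIs in control wounds and 201395 in *SM22-SmoM2* wounds, with medians of 5936.5 and 4007 UMIs per cell. *Il6*-type cells, 93 and 38 in the control and *SM22-SmoM2* libraries, were somewhat deeper, with medians of 6835 and 4566 UMIs. Values below are UMIs of a gene summed over the cells of a group and divided by all UMIs of that group, in counts per 1000000 (CPM). Since the tags come from the 3′ end of each transcript, CPM does not need a correction for gene length.

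The members held the defining mural transcripts, and also transcripts of fibroblasts and, in the control library, of immune cells. The 10 mural markers, all detected, summed to 13565 CPM in control cells and 13357 CPM in *SM22-SmoM2* *Cox4i2*-type cells, and *Rgs5* was the most abundant of them. Of the 7 genes that defined mural cells, all were detected in 51 of 134 control and 9 of 36 *SM22-SmoM2* members. No UMI of *Pdgfra*, *Pecam1* or *Sox10* was found in 118 and 33 members in the control and *SM22-SmoM2* libraries. Markers of large-vessel or arrector smooth muscle summed to 3755 CPM and 2150 CPM, led by *Acta2*, but *Pln* was at 0 in every group and *Cnn1* was at 0 in both *SM22-SmoM2* groups. Endothelial markers summed to 58.5 CPM and 44.7 CPM, and Schwann cell markers to 129 CPM and 114 CPM. Immune markers summed to 1505 CPM in control members and 29.8 CPM in *SM22-SmoM2* members, led by *Cd74* in control and by *Lyz2* (4 of 6 UMIs) in *SM22-SmoM2* members, and 92.4% of the control UMIs lay in 5 cells. Fibroblast markers, led by *Col1a1*, summed to 5698 CPM in control cells and 4653 CPM in *SM22-SmoM2* members, against 19774 CPM and 6842 CPM in *Il6*-type cells. Cells with at least 5 immune, 10 fibroblast (*Dpt*, *Lum* and *Dcn*) or 5 endothelial UMIs numbered 15 of 134 and 3 of 36 *Cox4i2*-type cells, and 26 of 93 and 6 of 38 *Il6*-type cells. Values without those cells are given beside the results that moved most with them.

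The genes of the rule are described first, with no test, since they chose the members. *Cox4i2*, an alternative subunit of respiratory chain complex IV, stood at 1397 CPM in control *Cox4i2*-type cells and 1202 CPM in *SM22-SmoM2* ones, against 380 CPM and 544 CPM in *Il6*-type cells. *Nrip2*, a nuclear receptor-interacting protein, had the steepest contrast in the control library, at 305 CPM against 9.43 CPM, and stood at 214 CPM against 18 CPM in the *SM22-SmoM2* library. *Olfr558*, an odorant receptor gene that is also expressed in vascular smooth muscle, stood at 345 CPM against 48.3 CPM and at 288 CPM against 28.8 CPM. *Nrip2* and *Olfr558* thus lay more than 5-fold apart in both libraries, whereas *Cyp4b1*, a cytochrome P450, was at 512 CPM against 226 CPM in control and 516 CPM against 310 CPM in *SM22-SmoM2* cells. The set of genes that marked the opposite group was less even. *Il6*, an inflammatory cytokine, stood at 81.8 CPM in control cells and 49.7 CPM in *SM22-SmoM2* members, against 252 CPM and 400 CPM in *Il6*-type cells. *H2-M9*, a non-classical class I histocompatibility gene, stood at 74.1 CPM and 24.8 CPM in members, against 259 CPM and 108 CPM. *Gucy1a3*, the α subunit of soluble guanylate cyclase, stood, with all members, at 355 CPM against 263 CPM in control and 343 CPM against 263 CPM in *SM22-SmoM2* cells. *Gm13889*, a gene without an assigned function, was at 987 CPM against 767 CPM in control and at 536 CPM against 832 CPM in *SM22-SmoM2* cells. With the cells holding other-lineage transcripts left out, the control log2 ratio was −0.18 for *Gm13889* (−0.33 to −0.02), 0.04 for *Gucy1a3* (−0.23 to 0.31) and 0.48 for *Cyp4b1*, so the lead of *Gm13889* in control members had the other sign and that of *Gucy1a3* lay within counting error.

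*Cox4i2* was rare in the other cell types used as reference. After thinning to 2500 UMIs, *Cox4i2* was detected in 85.8% of control and 88.9% of *SM22-SmoM2* *Cox4i2*-type cells (95.5% and 97.2% before thinning), in 47.3% and 55.3% of *Il6*-type cells, and in 0.665% and 1.21% of fibroblasts of the same libraries, whose median depths were 11945.5 and 11634 UMIs. Of endothelial cells, with median depths of 8586.5 and 6238 UMIs, 0.523% and 0.913% held it, and of Schwann cells 0.699% in control and 0 of 199 in *SM22-SmoM2* wounds, which allows up to 1.51% with a UMI. *Rgs5*, a regulator of G protein signalling that marks mural cells generally, was high in both groups, at 8713 CPM in control cells and 8670 CPM in *SM22-SmoM2* members against 4043 CPM and 5213 CPM in *Il6*-type cells. *Notch3*, the mural Notch receptor, followed the same order, at 429 CPM and 427 CPM against 220 CPM in both libraries. *Kcnj8*, a pore subunit of the ATP-sensitive potassium channel, did not keep 1 direction, with 341 CPM against 235 CPM in control and 298 CPM against 429 CPM in *SM22-SmoM2* cells. Its sulfonylurea receptor partner *Abcc9* was higher in members in both libraries, at 209 CPM against 136 CPM and 293 CPM against 155 CPM. Without cells holding other-lineage transcripts its log2 ratio was 0.22 (−0.16 to 0.60) in control, within counting error, and 0.76 (0.11 to 1.43) in *SM22-SmoM2* cells.

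**Figure D1:**
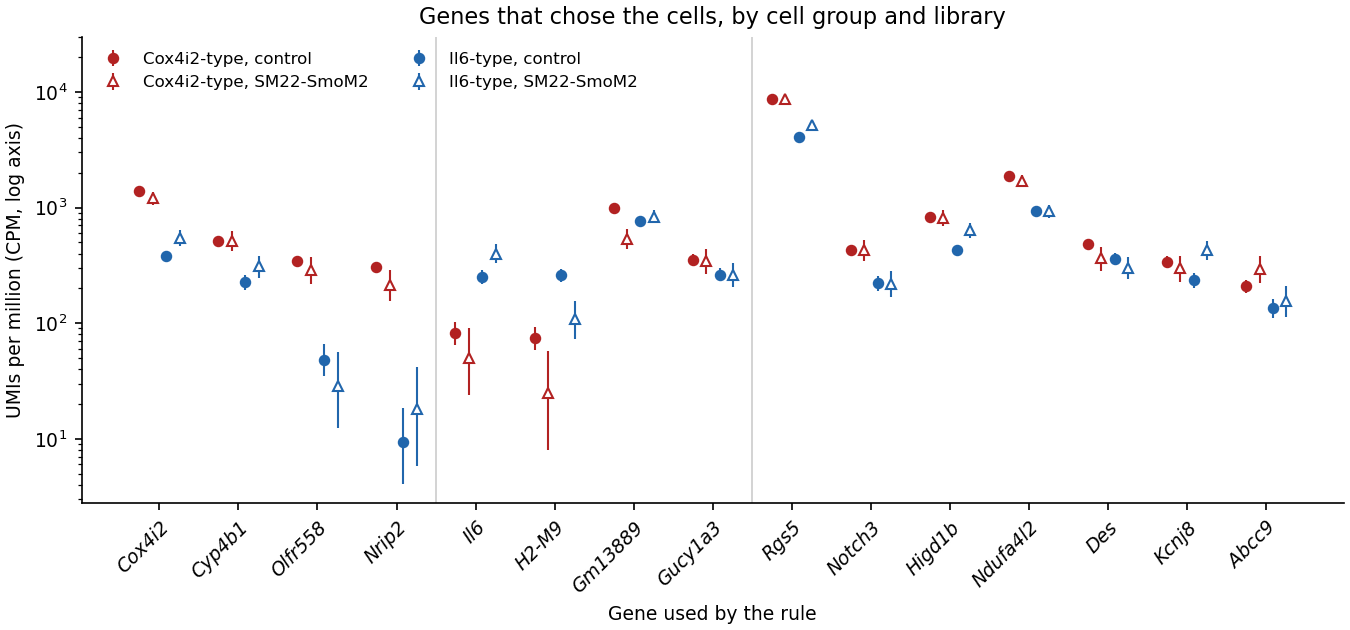
Level of each gene used to choose mural cells and to split them, in CPM on a log axis with the 95% counting interval, in *Cox4i2*-type and *Il6*-type mural cells of the control and *SM22-SmoM2* libraries. *Nrip2* and *Olfr558* lie far apart between the groups, while *Gucy1a3* (355 CPM against 263 CPM in control) lies close together in both groups, at a ratio that was 0.04 on the log2 scale without cells holding other-lineage transcripts.

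To see how much each contrast owed to the gene itself, the groups were formed again with that gene left out of the rule. The log2 ratio of *Cox4i2*-type over *Il6*-type cells for *Nrip2* was then 1.83 in control and 1.92 in *SM22-SmoM2* cells, against 5.02 and 3.57 when it took part in the choice. For *Olfr558* it was 1.23 and 1.21, and for *Cox4i2* 1.46 and 1.00. These 3 genes were thus still higher in members in both libraries. *Cyp4b1* was not, at 0.40 and −0.47. The genes of the rule had been chosen with results of these same data known, so this is a description and not a test. Cells holding other-lineage transcripts were kept in it. On the other side, *Il6* was at −0.34 and −0.90, *H2-M9* at −0.09 and 0.64, *Gm13889* at 1.05 and −0.36, and *Gucy1a3* at 1.21 and 0.47, so of the genes that counted against membership only *Il6* was lower in both libraries when it did not choose the cells.

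Members differed in how fully they met the rule. All 4 of *Cox4i2*, *Cyp4b1*, *Olfr558* and *Nrip2* were detected in 62 of 134 control members and 10 of 36 *SM22-SmoM2* members, and 3 of them in 53 and 19. Most members also held *Il6*-side transcripts, and only 7 and 4 cells had none. The cells just inside the threshold, with a lead of 1 gene, numbered 92 for control and 23 for the *SM22-SmoM2* library, and the tied cells just outside it numbered 111 and 35. Some transcripts outside the rule differed with the lead in steps. *Tbx2*, a T-box transcription factor, stood in control cells at 46.1 CPM in tied cells, 92.5 CPM at a lead of 1 and 130 CPM at 2 or more, and in *SM22-SmoM2* cells at 46.8 CPM, 73.6 CPM and 154 CPM. *Ccl2*, a monocyte-attracting chemokine, ran the other way, at 783 CPM, 593 CPM and 151 CPM in control and 554 CPM, 274 CPM and 96.3 CPM in *SM22-SmoM2* cells. Both genes thus stood at a middle level in the cells next to the threshold in either library. *Gja4* and *Col1a1* did not step in this way in *SM22-SmoM2* cells. In the same order they stood there at 316 CPM, 375 CPM and 308 CPM, and at 1451 CPM, 2469 CPM and 1984 CPM.

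**Figure D2:**
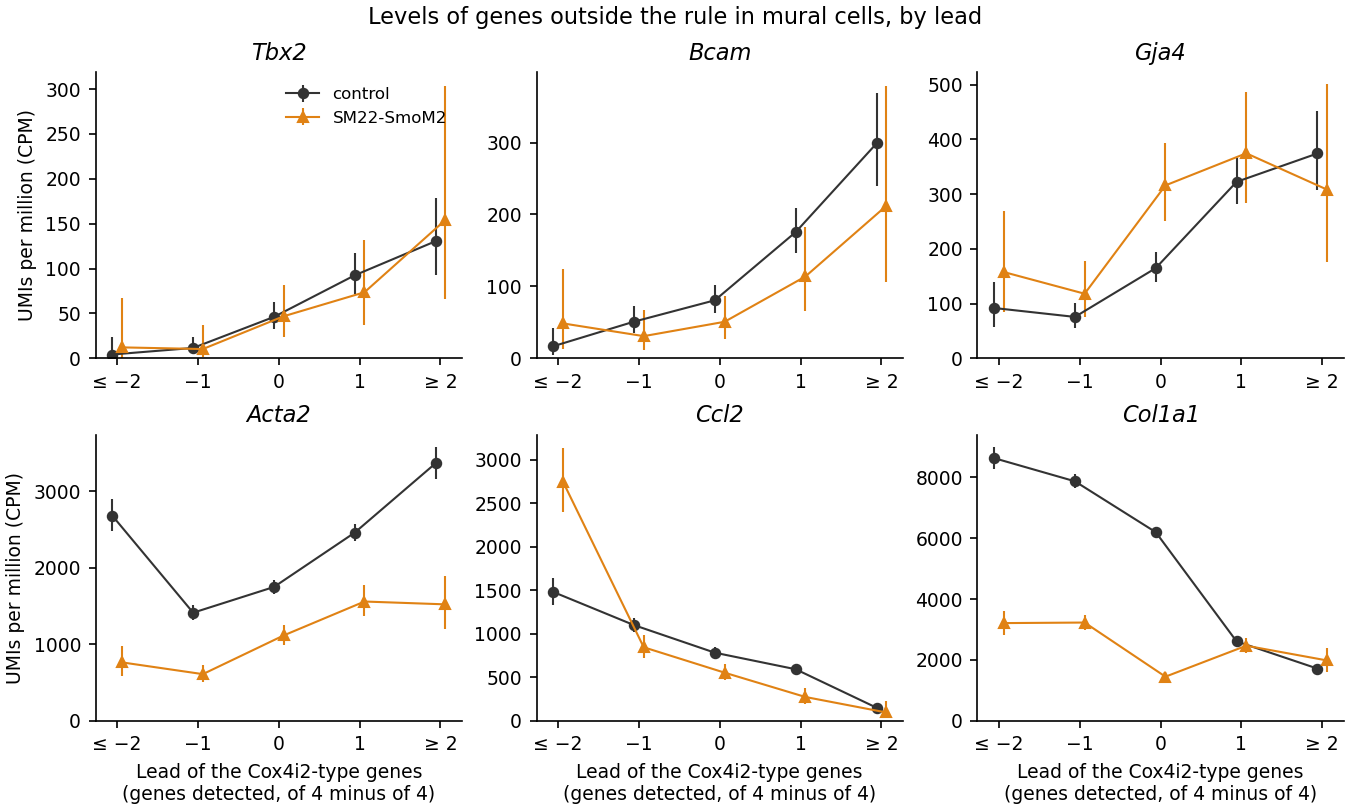
CPM, with 95% counting intervals, of *Tbx2*, *Bcam*, *Gja4*, *Acta2*, *Ccl2* and *Col1a1* in mural cells binned by the number of *Cox4i2*-side genes detected minus the number of *Il6*-side genes, in both libraries. *Tbx2* is higher and *Ccl2* lower toward the *Cox4i2* side in both libraries (130 CPM and 151 CPM at a lead of 2 or more in control), whereas *Acta2* does not run in 1 direction in control cells.

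The first comparison asked which other transcripts set *Cox4i2*-type cells apart from *Il6*-type cells of the same library. Of 3561 genes with at least 20 UMIs over both groups in each library, 32 (0.899%) were at least 2-fold higher in *Cox4i2*-type cells in both libraries and 44 (1.24%) were at least 2-fold lower in both. Because every gene came from the cells that the rule had sorted, these are descriptions without a test. In the control library alone 2.89% of genes were at least 2-fold higher and 3.54% lower, and in the *SM22-SmoM2* library alone 5.64% and 7.25%. The median log2 ratio of all measured genes was 0.06 in control and 0.07 in *SM22-SmoM2* cells, a value near 0 that the scaling to CPM largely sets. When cells with transcripts of another lineage were left out, all 32 higher genes kept their direction in both libraries and 16 of them were still measured and past 2-fold. Of the 44 lower genes, 35 kept their direction in both and 15 were still past 2-fold.

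The most separated of the higher genes was *Tbx2*, at 103 CPM in control cells and 94.3 CPM in *SM22-SmoM2* members against 9.43 CPM and 10.8 CPM in *Il6*-type cells, or log2 ratios of 3.45 and 3.13 (the latter on 3 UMIs in *Il6*-type cells, interval 1.36 to 5.53). At 2500 UMIs per cell *Tbx2* was detected in 21.6% and 19.4% of members (39.6% and 27.8% unthinned), in 4.3% and 5.26% of *Il6*-type cells (7.53% and 5.26% unthinned) and in 0.222% and 0.268% of fibroblasts. *Bcas3*, a gene linked to cell migration, lies on the same strand of chromosome 11 at a gap of 6493 bases from *Tbx2*, and it followed it, at 118 CPM and 144 CPM against 16.5 CPM and 25.2 CPM. Reads that ran on from one gene toward the other could not be told apart in the counts. *Bcam*, a laminin receptor, was at 210 CPM and 139 CPM against 41.3 CPM and 36.0 CPM, and *Gja4*, the gap junction protein connexin 37, was at 337 CPM and 358 CPM against 80.2 CPM and 130 CPM. Both were more than 2-fold higher in each library also without the cells holding other-lineage transcripts, at 1.98 and 2.0 for *Bcam* and 1.60 and 1.37 for *Gja4*.

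Among the other higher genes, *Agt*, the precursor of angiotensin, stood at 99.4 CPM in control cells and 84.4 CPM in *SM22-SmoM2* members against 11.8 CPM and 25.2 CPM. *Avpr1a*, the vasopressin receptor of vascular muscle, stood at 98.4 CPM and 89.4 CPM against 38.9 CPM and 21.6 CPM, and *Ednra*, the endothelin receptor that drives contraction, at 214 CPM and 204 CPM against 101 CPM and 79.3 CPM. Without cells holding other-lineage transcripts their control log2 ratios were below 2-fold, at 0.79 for *Avpr1a* and 0.72 for *Ednra*. The other endothelin receptor gene, *Ednrb*, went the opposite way, with log2 ratios of −1.37 and −2.0. *Angpt1*, the Tie2 ligand that mural cells present to the endothelium, was at 43.8 CPM and 79.4 CPM against 17.7 CPM and 18 CPM, but thinned to equal depth its control log2 ratio was −0.55. The remaining named genes were *Slc16a12*, a monocarboxylate and creatine transporter (1.66 in control and 2.23 in *SM22-SmoM2* cells, or 0.93 and 1.96 without cells holding other-lineage transcripts), *Map3k7cl* (2.89 and 1.46), *Tusc5*, which acts in glucose transporter trafficking in fat cells (1.55 and 1.84), *Rasl12*, a Ras-like GTPase (1.76 and 1.46), and *Hopx*, a homeodomain-only cofactor (1.34 and 1.52). Of genes picked after their values were seen, the G protein γ subunit *Gng11* was the most abundant, at 1280 CPM and 1415 CPM against 507 CPM and 663 CPM, the fatty acid carrier *Fabp4* stood at 708 CPM and 487 CPM against 306 CPM and 169 CPM, and *Kitl*, the Kit ligand, at 159 CPM and 164 CPM against 74.3 CPM and 68.5 CPM.

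**Figure D3:**
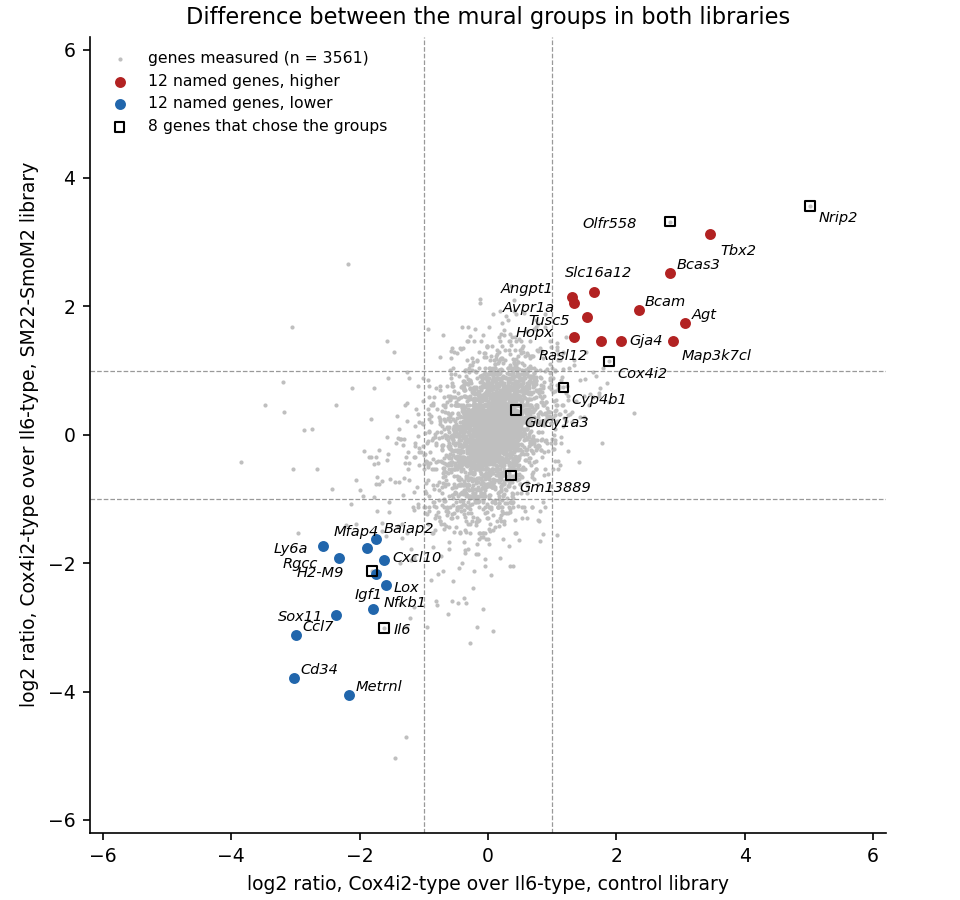
Log2 ratio of *Cox4i2*-type over *Il6*-type mural cells in the control library (x axis) and the *SM22-SmoM2* library (y axis) for the 3561 measured genes, each a point, with named genes labelled. *Tbx2* (3.45 and 3.13) and *Bcas3* (2.84 and 2.51) lie at the upper right outside the rule, and *Ccl7* (−2.99 and −3.12) and *Cd34* at the lower left, with *Ccl7* at −1.64 and −1.54 without cells holding other-lineage transcripts.

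Gene lists were then read against the background of all measured genes, of which 36.3% were higher and 25.6% lower in *Cox4i2*-type cells in both libraries. Of 13 measured genes of the contractile apparatus, 10 were higher in both libraries and 0 lower in both, with medians of 0.47 in control and 0.39 in *SM22-SmoM2* cells. Myosin heavy chain *Myh11* passed 2-fold in both, at 261 CPM and 129 CPM against 120 CPM and 57.6 CPM. The most abundant member, smooth muscle actin *Acta2*, was at 2717 CPM and 1549 CPM against 1771 CPM and 656 CPM, and the myosin light chain *Myl9* was at 2182 CPM and 1738 CPM against 1212 CPM and 703 CPM. In the control library this lead shrank with the choice of cells, with a median of 0.17 without the cells holding other-lineage transcripts and −0.00691 at equal depth per cell. In *SM22-SmoM2* cells the median without the cells holding other-lineage transcripts was 0.60. Of 12 contractile genes then measured, 8 were higher and 1 lower in both libraries. *Acta2* in control cells was also high at the far *Il6* side, where cells with a lead of −2 or less stood at 2680 CPM, against 1413 CPM at −1 and 3365 CPM at 2 or more. Of 9 measured mural transcription factor genes, 8 were higher in both libraries, among them *Mef2c*, a driver of muscle genes, at 479 CPM and 591 CPM against 167 CPM and 324 CPM. When cells holding other-lineage transcripts were left out, 5 of 8 were higher and 1 lower in both, and the control median was 0.34 instead of 0.62. Of 6 genes of nitric oxide and cyclic GMP signalling, 5 were higher in both, including the cyclase β subunit *Gucy1b3*, at 282 CPM and 298 CPM against 136 CPM and 205 CPM, and *Ppp1r14a*, an inhibitor of myosin phosphatase, at 203 CPM and 204 CPM against 96.7 CPM and 75.7 CPM. Receptors, channels and pumps of mural cells were less uniform, with 6 of 11 higher and 1 lower in both libraries. Without those cells 4 of the 6 nitric oxide genes were higher and 1 lower, with a control median of 0.39 instead of 0.77, and of 9 receptors, channels and pumps 3 were higher and 3 lower.

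Respiratory chain subunits that exist as a pair of isoforms differed in direction. Of 9 measured genes of such pairs, 7 were higher in members in both libraries and 2 lower, but 3 of the 7, *Cox4i2*, *Ndufa4l2* and *Higd1b*, had chosen the cells. Of the other 6 genes 4 were higher and 2 lower, with medians of 0.13 in control and 0.25 in *SM22-SmoM2* cells. The isoforms typical of mural cells were higher in members, with *Ndufa4l2* at 1872 CPM and 1713 CPM against 928 CPM and 930 CPM and *Higd1b* at 821 CPM and 819 CPM against 428 CPM and 638 CPM, which is a description of the choice of cells. The lower ones were the widely expressed counterparts of these genes. *Ndufa4*, which *Ndufa4l2* resembles, stood at 105 CPM and 94.3 CPM against 209 CPM and 173 CPM, and *Higd1a* at 108 CPM and 94.3 CPM against 215 CPM and 130 CPM. *Cox4i1*, the common form of the *Cox4i2* subunit, was among the higher, at 1563 CPM and 1703 CPM against 1266 CPM and 1416 CPM (0.30 and 0.27). The *Cox4i1* transcript was thus still as abundant in members as *Cox4i2*, at 1563 CPM and 1397 CPM in control cells.

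Cytokine genes and genes of the NF-κB pathway were mostly lower in *Cox4i2*-type cells. NF-κB is a transcription factor that injury and cytokines release into the nucleus, where it turns on chemokine genes and its own inhibitor *Nfkbia*. Of 16 measured genes of this list, 13 were lower in *Cox4i2*-type cells in both libraries, 4 of them at least 2-fold in both, and 1 was higher, *Il34*, a ligand of the macrophage colony-stimulating factor receptor. The medians were −1.01 in control and −0.97 in *SM22-SmoM2* cells. Without the cells holding other-lineage transcripts they were −1.07 and −1.24, with 11 of 14 genes lower in both. *Ccl2* was at 468 CPM and 228 CPM in members against 1208 CPM and 1412 CPM in *Il6*-type cells, and *Ccl7*, a related monocyte chemokine, was at 43.8 CPM and 9.93 CPM (2 UMIs) against 349 CPM and 86.5 CPM. The log2 ratio of *Ccl7* in *SM22-SmoM2* cells was −3.12 (−6.25 to −1.11). Leaving out cells with other-lineage transcripts, it was −1.54 (−4.88 to 0.95), and that in control −1.64 instead of −2.99. The neutrophil chemokine *Cxcl1* was at 488 CPM and 1053 CPM against 1934 CPM and 1906 CPM. *Cxcl10*, an interferon-induced chemokine, was at 62.4 CPM and 49.7 CPM against 191 CPM in both libraries. *Nfkb1*, the gene of the p50 subunit, stood at 44.8 CPM and 29.8 CPM against 154 CPM and 195 CPM, and *Nfkbia* at 631 CPM and 566 CPM against 1341 CPM and 1200 CPM. Since *Il6* chose the groups and belongs to the same pathway, the direction of this list is not independent of the rule.

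The promoters of some of these genes are shown because they carry a κB-like sequence. The letters GGGA and TTTCC with 1 base of any kind between them were searched on both strands of the 250 bases before each start site in RefSeq's table for GRCm38.p6, after the values had been seen. Of 27025 genes with a promoter there 0.414% held a match, and of 19 genes of the cytokine list with an entry 4 did (21.1%), as did *Il6* itself. Since the list was put together from cytokine and NF-κB pathway genes, its share beside that of all genes is no test. Below, 30 bases around each match are printed on the gene's strand, with the match in capitals. Those of *Il6*, *Cxcl1*, *Cxcl2* and *Nfkbia* began within 100 bases of the start site, and in *Csf1*, the gene of macrophage colony-stimulating factor, and *Nfkbia* the match read on the other strand.
Il6, chr5:30013060-30013089, plus strand: tatcaaatgtGGGATTTTCCcatgagtctc
Cxcl1, chr5:90891164-90891193, plus strand: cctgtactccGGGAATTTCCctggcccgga
Cxcl2, chr5:90903792-90903821, plus strand: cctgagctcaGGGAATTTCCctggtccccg
Csf1, chr3:107760604-107760633, minus strand: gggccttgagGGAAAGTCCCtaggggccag
Nfkbia, chr12:55492657-55492686, minus strand: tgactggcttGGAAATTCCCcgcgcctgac
Of these list genes, *Cxcl1*, *Cxcl2* and *Nfkbia* were measured in this comparison, and *Cxcl2*, another neutrophil chemokine, stood at 124 CPM and 169 CPM in members against 514 CPM and 274 CPM. Its log2 ratio without cells holding other-lineage transcripts was −0.33 (−0.92 to 0.26) in control and 1.14 (−0.15 to 2.56) in *SM22-SmoM2* cells, so its lower level in members rested on those cells. *Csf1* had too few UMIs in the *SM22-SmoM2* library to be measured. A match is a string of letters and says nothing of binding, and *Cxcl10*, whose log2 ratios were −1.61 and −1.94, held none in its 250 bases. Of the 8 genes that split the mural cells, 5 had an entry. In these promoters the RBPJ motif of the Notch pathway (GTGGGAA) and the HIF core (ACGTG) were searched on both strands. The RBPJ motif was found for *H2-M9* and for a start site of *Gucy1a3*, and in 5.42% of all promoters. The HIF core was found for none of them, and in 16.6% of all promoters.

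Immediate early and heat shock genes, which are switched on within minutes of a stimulus and also during tissue dissociation, ran the same way. Of 21 measured, 20 were lower in *Cox4i2*-type cells in both libraries, with medians of −0.60 and −0.47, and 19 of 20 without the cells holding other-lineage transcripts. *Junb*, an AP-1 subunit, was at 1078 CPM and 1077 CPM against 1807 CPM and 2742 CPM. Cells were released from skin by enzymes before sorting, and levels at that step were not measured apart from those in the wound. Of 11 TGF-β and BMP pathway genes, 5 were lower and 2 higher in both libraries. Among the lower were *Tgfbr2*, the type II TGF-β receptor, at 47.7 CPM and 39.7 CPM against 144 CPM and 119 CPM, and the inhibitory *Smad7*, at 46.8 CPM and 19.9 CPM against 108 CPM and 144 CPM. *Id1*, a BMP target, was higher in control members, at 250 CPM against 138 CPM, and lower in *SM22-SmoM2* members, at 159 CPM against 465 CPM, which is a difference between libraries that was not tested. In the absence of cells holding other-lineage transcripts 1 of 7 genes of this list was higher and 4 lower, *Tgfbr2* was at −0.62 (−1.47 to 0.26) in control cells, and *Id1* was at −0.77 in *SM22-SmoM2* cells.

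Many of the genes that were lower in *Cox4i2*-type cells are fibroblast transcripts, and their contrast moved with the cells that held such transcripts. Of 16 genes of fibrillar matrix and its assembly, 12 were lower in both libraries and 0 higher, with medians of −1.43 in control and −0.28 in *SM22-SmoM2* cells, against −0.33 and −0.40 without cells holding other-lineage transcripts, where 10 of 13 were lower and 2 higher. *Cd34*, a surface protein of fibroblasts, stood at 26.3 CPM and 4.97 CPM against 213 CPM and 68.5 CPM, but without those cells its log2 ratio was 0.74 in control and −2.27 in *SM22-SmoM2* cells, the latter on 1 UMI in members (−7.84 to 0.89). *Mfap4*, a microfibril protein, was at 158 CPM and 49.7 CPM against 585 CPM and 169 CPM, or 0.36 and −1.27 without those cells, where the latter rested on 2 UMIs in members (−4.67 to 1.34). *Ly6a*, the Sca-1 antigen, was at 109 CPM and 49.7 CPM against 646 CPM and 166 CPM, or 0.01 and 1.27 without them, the latter on 3 UMIs in *Il6*-type cells (−0.86 to 3.85). *Igf1*, a growth factor, was at −1.75 in control and −2.17 in *SM22-SmoM2* cells with all members, and at −0.12 and −2.76 without them, the latter on 1 UMI in members (−8.25 to 0.20). The collagen cross-linking enzyme *Lox* was at 59.4 CPM and 19.9 CPM against 179 CPM and 101 CPM and remained lower without those cells, at −0.96 and −1.95, the latter on 1 UMI in members (−7.57 to 1.39). Other named genes on this side were *Metrnl*, a secreted factor, at 26.3 CPM and 4.97 CPM against 118 CPM and 82.9 CPM (−4.06 in *SM22-SmoM2* cells, on 1 UMI in members, −9.43 to −1.44), *Baiap2*, an actin regulator, at 22.4 CPM and 19.9 CPM against 75.4 CPM and 61.2 CPM, and *Rgcc*, a cell cycle regulator, at 23.4 CPM and 24.8 CPM against 117 CPM and 93.7 CPM. Without those cells *Rgcc* was at −1.29 in control and −0.44 in *SM22-SmoM2* cells (−2.44 to 1.44). *Sox11*, a developmental transcription factor, was at 3.9 CPM against 20.0 CPM in control cells. In the *SM22-SmoM2* library it had 0 UMIs in members, which allows up to 14.9 CPM (3 UMIs), against 104 CPM in *Il6*-type cells, of which 4 UMIs (22.8 CPM) remained without cells holding other-lineage transcripts.

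Of 5 vesicle and caveola genes 3 were higher and 0 lower in both libraries, with medians of 0.26 in control and 0.35 in *SM22-SmoM2* cells. Without cells holding other-lineage transcripts 2 were higher and 0 lower, with medians of −0.0026 and 0.24. The lists given next did not lean clearly to the same group in both libraries when all members were taken. Basement membrane genes, with 4 of 12 higher and 2 lower in both libraries, had medians of −0.00 and 0.04, and without cells holding other-lineage transcripts 2 were higher and 4 lower. Class I histocompatibility and interferon genes had 5 of 15 higher and 2 lower, with medians of 0.25 and −0.08. Of the class I and interferon genes measured without those cells, 0 of 14 were higher and 11 lower in both libraries, with medians of −0.21 and −0.22. Of 6 Notch pathway genes and of 8 cell cycle genes, 1 each was higher and 1 lower in both. Their medians had opposite signs in the control and *SM22-SmoM2* libraries, at 0.29 and −0.55 for Notch and −0.65 and 0.60 for cell cycle genes. Without cells holding other-lineage transcripts they were −0.09 and −0.60 over 5 Notch genes, and −0.35 and 0.52 over 5 cell cycle genes. These differences between libraries were not tested. Of 7 hypoxia genes 1 was higher and 1 lower, and *Epas1*, the gene of HIF-2α, was the higher one, at 254 CPM and 223 CPM against 125 CPM and 155 CPM.

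**Figure D4:**
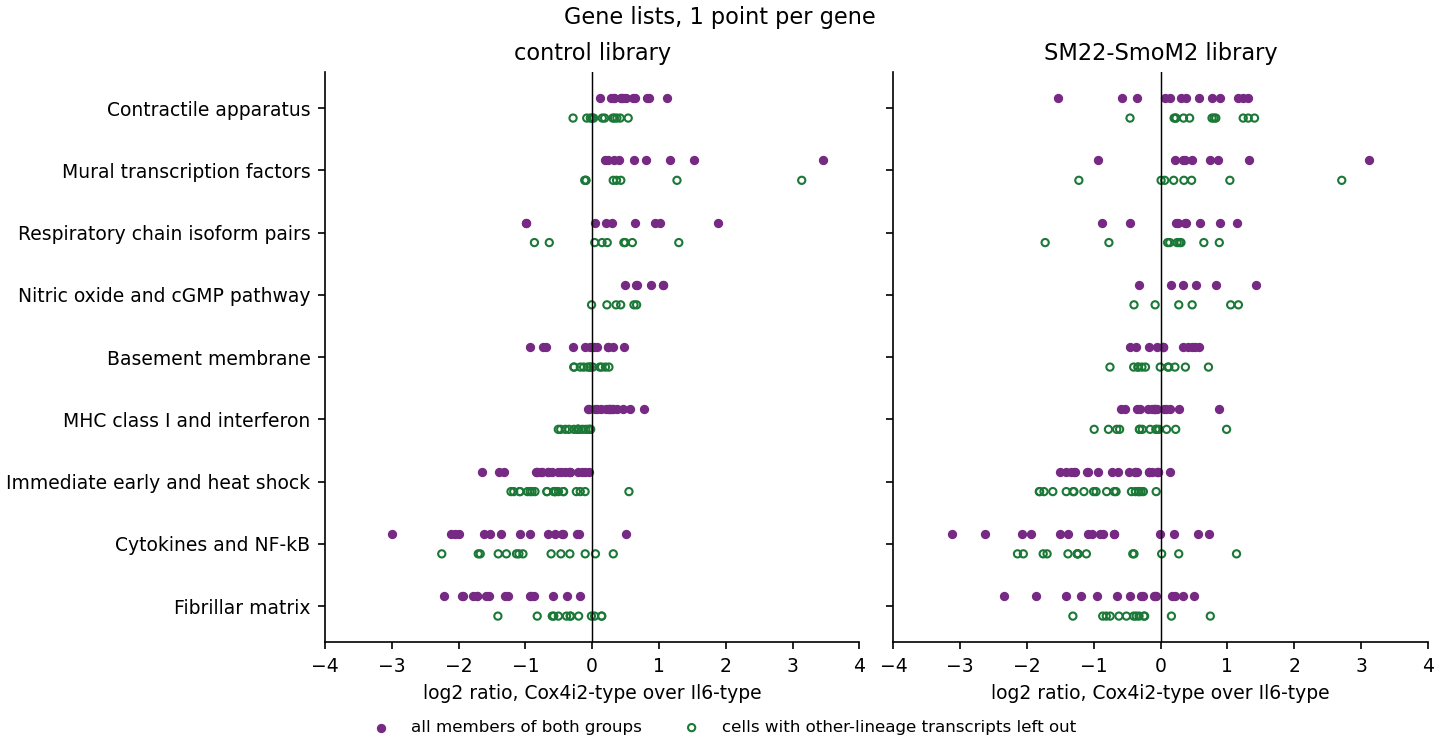
Log2 ratio of *Cox4i2*-type over *Il6*-type mural cells for the measured genes of 9 lists, each gene a point, in both libraries, with all members and with cells holding transcripts of another lineage left out. Most cytokine and NF-κB genes (medians −1.01 and −0.97) and most immediate early genes lie below 0 in each panel, while the fibrillar matrix genes of the control library come closer to 0 when those cells are left out (−1.43 to −0.33).

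The second comparison set the *Cox4i2*-type cells of *SM22-SmoM2* wounds beside those of control wounds. Library, mice and genotype cannot be told apart here, and fewer UMIs stood behind the *SM22-SmoM2* values. Of 5443 genes with at least 30 UMIs over both libraries, 125 (2.3%) were at least 2-fold higher in the *SM22-SmoM2* members and 470 (8.63%) at least 2-fold lower, with a median log2 ratio of −0.09 over all measured genes. The *SM22-SmoM2* members held 201395 UMIs against 1026271 in control, so a gene near the minimum rested on few *SM22-SmoM2* UMIs. The excess of lower over higher genes cannot be told apart from this difference in depth. The genes that chose the members are given as a description, since the same rule picked the cells of both libraries. The log2 ratio was −0.01 for *Rgs5*, −0.01 for *Notch3*, −0.00 for *Higd1b*, −0.13 for *Ndufa4l2*, −0.20 for *Kcnj8*, −0.43 for the intermediate filament gene *Des* and 0.49 for *Abcc9*. It was −0.22 for *Cox4i2*, 0.01 for *Cyp4b1*, −0.26 for *Olfr558* and −0.51 for *Nrip2*. Of the 12 genes named above as higher than in *Il6*-type cells, *Slc16a12* was the only one past 2-fold between the libraries, at 1.04, and the others ran from −0.60 for *Bcam* to 0.86 for *Angpt1*, with *Tbx2* at −0.13 and *Gja4* at 0.08.

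Contractile genes were lower in the *SM22-SmoM2* members. Of 15 measured, 14 were lower, 4 of them at least 2-fold, with a median of −0.63, beside 3161 of all 5443 measured genes that were lower. The median was −0.65 without cells holding other-lineage transcripts and −0.27 after thinning to 2500 UMIs. *Acta2* was at 2717 CPM in control cells and 1549 CPM in *SM22-SmoM2* members (−0.81, counting interval −0.98 to −0.64). *Tagln*, the gene of SM22α, whose promoter drove the labelling, was at 1231 CPM and 571 CPM (−1.11). *Myh11* had a log2 ratio of −1.02 and the enteric actin *Actg2* one of −1.65, while the actin cross-linker *Flna* was at 0.07. In *Il6*-type cells the log2 ratios were −1.43 for *Acta2*, −0.66 for *Tagln*, −1.06 for *Myh11* and −1.92 for *Actg2*. Basement membrane genes did not follow, with a median of 0.10 over 13 genes, and the type IV collagen gene *Col4a1* was higher in *SM22-SmoM2* members, at 1599 CPM against 1017 CPM (0.65, 0.47 to 0.83). Of 14 TGF-β and BMP pathway genes 10 were lower, with a median of −0.50, beside the same 3161 of 5443. *Thbs1*, a secreted activator of latent TGF-β that was picked after its values were seen, was at 116 CPM in control cells and 19.9 CPM in *SM22-SmoM2* members (−2.55, −4.44 to −1.15).

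Hedgehog targets were few in these cells. *Ptch1*, the Hedgehog receptor and a direct target of the pathway, had 10 UMIs in control and 6 UMIs in *SM22-SmoM2* members, or 9.74 CPM and 29.8 CPM, with a log2 ratio of 1.61 whose interval ran from −0.13 to 3.21. Without cells holding other-lineage transcripts 8 and 2 UMIs remained (0.39, −2.88 to 2.71). *Gli1*, the other standard target, had 1 UMI in control members and 0 in *SM22-SmoM2* members, which allows up to 14.9 CPM. In fibroblasts of the same libraries *Ptch1* was at 11.9 CPM and 138 CPM and *Gli1* at 5.89 CPM and 28.8 CPM, and in *Il6*-type mural cells *Ptch1* was at 8.25 CPM and 61.2 CPM. Without cells holding other-lineage transcripts the latter rested on 5 and 5 UMIs, with a log2 ratio of 1.38 and an interval from −0.74 to 3.5. In the *Cox4i2*-type cells the interval of *Ptch1* thus included no difference, and a level of *Gli1* below the limit was not detectable at this depth. *Smo*, whose counts could include the SmoM2 transcript, had 31 and 7 UMIs (0.20), or 27 and 3 without cells holding other-lineage transcripts (−0.78, −3.15 to 0.92).

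Some of the genes that stood higher in *SM22-SmoM2* members were spread over several cells and others came from 1. *Serpina1b*, an α1-antitrypsin gene, had 19 UMIs in control and 36 UMIs in *SM22-SmoM2* members, or 18.5 CPM and 179 CPM (3.27, 2.43 to 4.16), and 3.43 without cells holding other-lineage transcripts. At 2500 UMIs per cell it was detected in 2.99% of control and 27.8% of *SM22-SmoM2* members (6.72% and 30.6% unthinned). Its neighbour and near copy *Serpina1d* followed at 3.28, and since the copies share sequence the assignment of reads between them is uncertain. Neither had a UMI in the fibroblasts or Schwann cells. Counting error alone allows up to 0.333% of such control and 0.403% of such *SM22-SmoM2* fibroblasts to hold a UMI, which does not limit how many of them express the genes. *Hey1*, a Notch target and transcriptional repressor, was at 2.03 (0.98 to 3.05), with 20 and 16 UMIs, and 7 of the 16 lay in 1 cell. The enkephalin precursor *Penk*, at 5.05, and *Mest*, an imprinted gene, at 4.87, had 23 of 26 and 46 of 46 *SM22-SmoM2* UMIs in 1 cell. The other named genes were *Tubb2b*, a tubulin (2.41), *Gm6133* (2.04), *Tyms*, thymidylate synthase (2.01), *Gpc3*, a glypican (1.88), *Smc2*, a condensin subunit (1.83), *2810417H13Rik*, a replication factor (1.79), and *Zfp414* (1.73). Without cells holding other-lineage transcripts *Tubb2b* was at 1.56 and *Gpc3* at 1.07 (−1.06 to 2.86), the latter on 4 UMIs in *SM22-SmoM2* members, and 16 of 36 UMIs of *2810417H13Rik* lay in 1 cell. Of 10 cell cycle genes 9 were higher, 3 of them at least 2-fold, with a median of 0.71, beside 2282 of all 5443 measured genes that were higher and 2.3% at least 2-fold. Without cells holding other-lineage transcripts 6 of the 10 were higher and 4 lower, 0 at least 2-fold higher and 1 at least 2-fold lower, with a median of 0.23.

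Most of the named genes on the lower side belong to macrophages and other antigen-presenting cells. *Cd74*, the invariant chain of class II histocompatibility molecules, had 769 UMIs in control and 1 UMI in *SM22-SmoM2* members, and 760 of the 769 lay in 15 control cells that held transcripts of another lineage. The class II genes *H2-Aa* (296 and 1 UMI) and *H2-Ab1* (242 and 0), the complement genes *C1qa* (134 and 1), *C1qb* (201 and 1) and *C1qc* (108 and 1), lysozyme *Lyz2* (337 and 4), *Fcer1g* (183 and 1), *Aif1* (63 and 1) and *Ms4a7* (174 and 0) had the same pattern. These values describe a few control cells and not the members at large. Outside this group, *Eln*, the elastin gene, had 65 and 1 UMIs (−3.67, −9.0 to −1.14), or 45 and 1 without those cells (−3.10, −8.44 to −0.55), and *Socs2*, a feedback inhibitor of cytokine signalling, had 68 and 1 (−3.74, −9.06 to −1.21), or 55 and 0 without those cells. Of 18 fibrillar matrix genes 13 were lower, but the median of −0.40 was −0.08 without cells holding other-lineage transcripts. Cytokine and NF-κB genes had 15 of 18 lower and a median of −0.35, which was 0.19 after thinning to 2500 UMIs. Without cells holding other-lineage transcripts 12 of 16 were lower, with a median of −0.34. *Ccl2* was at −1.03, and *Cxcl1*, which was higher at 1.11, was at −0.11 without those cells. Immediate early genes had a median of −0.01, and receptors, channels and pumps one of −0.00. Mural transcription factors had one of −0.13, with 5 of 11 higher and 6 lower. The immediate early, receptor and transcription factor lists did not lean clearly either way with all members. Without cells holding other-lineage transcripts, 15 of 21 immediate early genes were lower (median −0.22), as were 8 of 11 mural transcription factors (−0.23). Receptors, channels and pumps were then at 0.07, and 2859 of all 4952 measured genes were lower.

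**Figure D5:**
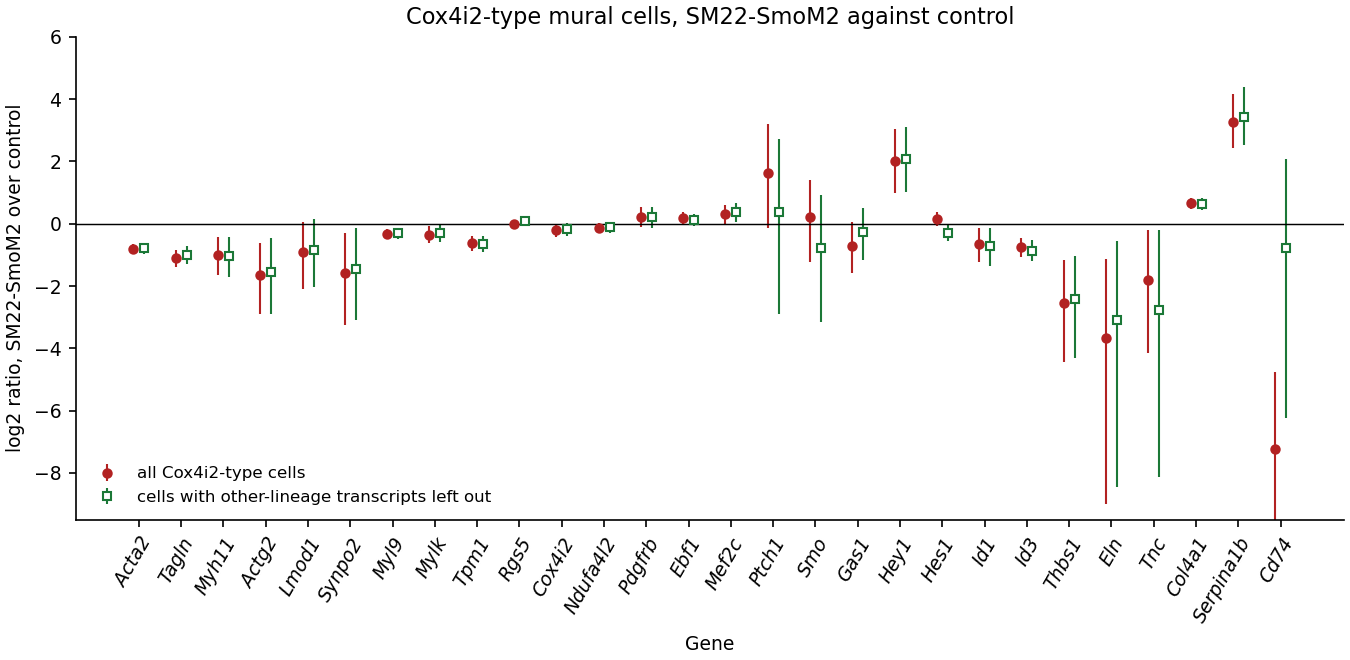
Log2 ratio of *SM22-SmoM2* over control in *Cox4i2*-type mural cells for 28 genes, with 95% counting intervals, with all members and with cells holding transcripts of another lineage left out. *Rgs5* lies at 0 and *Acta2* (−0.81) and *Tagln* (−1.11) below it, whereas the interval of *Cd74* runs past the axis and that of *Ptch1* (1.61) includes 0. The genes were picked with their values known.

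In *Il6*-type cells, set beside them, 121 of 4971 measured genes (2.43%) were at least 2-fold higher in *SM22-SmoM2* wounds and 430 (8.65%) at least 2-fold lower, shares close to those of the *Cox4i2*-type cells. These cells also held fewer UMIs in the *SM22-SmoM2* library, 277557 against 848327, so the same limit of depth applies. Both libraries pooled male and female mice. Of cells with transcripts of 1 sex only, 58.6% of control and 53.8% of *SM22-SmoM2* *Cox4i2*-type cells were male, as were 72.7% and 70% of *Il6*-type cells. With male *Cox4i2*-type cells alone, 111 of 2809 measured genes were at least 2-fold higher in *SM22-SmoM2* wounds and 305 lower, of which 22 of the 125 and 85 of the 470 genes above were measured and past 2-fold again. The part of the imbalance between *Cox4i2*-type and *Il6*-type cells in the first comparison was not tested.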

How the data were processed

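Per the labels, Tomato+ dermal cells were sorted after EDTA and collagenase treatment of healed wounds, and 1 droplet library (10x Genomics, 3′ tags) was made per condition. The submitters' processing notes name bcl2fastq, Cell Ranger and mm10, whose versions, annotation and strand setting are not given in the sources used here. The deposited values are raw UMI counts per gene (27998 genes) and cell, already limited by the authors to called cells. They are not normalised.

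Here, 22 of 2878 control barcodes and 10 of 1802 *SM22-SmoM2* barcodes with more than 10% mitochondrial UMIs were left out, and 2856 and 1792 cells with 30103855 and 17814222 UMIs were kept (medians 8607.5 and 8837.5). The barcode list (737280 entries) could not be tied to the columns, so barcodes shared between the libraries could not be counted. No doublet caller was run, and cells with transcripts of another lineage were left out in an alternative. Counts were summed per group and library into CPM, with exact Poisson, conditional and Clopper-Pearson 95% intervals for counting error only. Genes needed 20 UMIs over both groups in each library, or 30 UMIs over both libraries for the comparison of conditions, and a gene was called at 2-fold. A count of 0 allows 3 UMIs. Cells were also thinned to 2500 UMIs, with 0 cells below that depth. Fibroblasts and Schwann cells used as reference held at least 2 of 3 marker genes. List medians were compared across settings for lists with at least 10 measured genes.

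The mural groups, gene lists and comparisons were chosen with earlier results of these data known. Named genes were those of the rule, the 12 highest and 12 lowest of each main comparison, and the most abundant and most extreme members of each list. Other genes, *Tagln*, *Smo*, *Mef2c* and *Nfkbia* among them, were picked with their values known, which is not said at each place. Gene positions came from GENCODE M21, which matched 27722 identifiers, and promoters from RefSeq (GRCm38.p6). Python 3.11.15, numpy 2.4.6, scipy 1.17.1, pandas 2.3.3 and matplotlib 3.10.9 were used. The log2 ratio and its interval were tested on simulated UMI sums, and the choice of cells was not. Alternatives changed the mural threshold, the lead, the depth, the UMI minimum, single rule genes and the cells left out.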

Additional observations from a re-analysis of the deposited data

Results flagged for a closer look

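Genes were picked out whose log2 ratio passed 2-fold in opposite directions in the control and *SM22-SmoM2* libraries, or in *Cox4i2*-type and *Il6*-type cells, with counting intervals on either side of 0. These differences were not tested, since each library stands for 1 pool of wounds. For *Cox4i2*-type over *Il6*-type cells, *Mest* was at −2.18 in control and 2.66 in *SM22-SmoM2* cells, where all 46 of its UMIs in *Cox4i2*-type cells lay in 1 cell. *Tubb2b* was at −1.46 and 1.29, *Clec3b*, a secreted plasminogen-binding protein, at −3.06 and 1.69, and the matrix gene *Fbln1* at −1.57 and 1.46. *Gdpd3*, a phosphodiesterase, ran the other way, at 1.08 and −1.57.

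For *SM22-SmoM2* over control, *Fbln1* was at 1.70 in *Cox4i2*-type and −1.34 in *Il6*-type cells, the microfibril gene *Mfap2* at 1.04 and −1.03, *Ptn*, a heparin-binding growth factor, at 1.12 and −1.12, *Lrrc17* at 1.29 and −2.32, and *Gas7* at 1.28 and −1.55. The kinase gene *Pim1* was at −1.99 and 1.44, and *Fgl2*, a fibrinogen-like protein, at −1.20 and 1.27. *Mest* stood at 174 CPM in control fibroblasts against 7.80 CPM in control *Cox4i2*-type cells, and cells with at least 10 UMIs of *Dpt*, *Lum* and *Dcn* numbered 8 and 3 among the *Cox4i2*-type cells and 19 and 5 among the *Il6*-type cells of the control and *SM22-SmoM2* libraries. Without cells holding transcripts of another lineage, 2 of these 12 contrasts still had counting intervals on either side of 0, those of *Gdpd3* (0.61 and −1.63) and *Ptn* (0.82 and −0.72). *Mest* was then at 0.26 in control cells, with 0 UMIs in *SM22-SmoM2* *Cox4i2*-type cells against 8 in *Il6*-type cells, and *Tubb2b* at −0.13 and 0.41. *Clec3b* and *Fbln1* were at −0.31 and −0.19 over *Il6*-type cells in control, and had 1 and 3 UMIs in *SM22-SmoM2* *Cox4i2*-type cells.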

How the results depend on the processing

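The limits are those of 1 library per condition: no alternative replaces a replicate, and the 36 *SM22-SmoM2* members bound the precision of the values that rest on them. No paired analysis of the conditions was possible because each had 1 library, and no replicate could be left out. Of 2001 values of single genes under other settings 1954 kept their sign, though 395 of all moved beyond their counting interval. Of 47 that did not, the 33 whose reported value was past 2-fold are given below, and the other 14 were of *Gm13889*, *Gucy1a3* and *Cyp4b1*, genes of the rule. Of list medians, counts and shares, 375, 78 and 23 stayed close and the others are given below. Their causes were not tested beyond what a setting itself removes. The settings that left out cells with transcripts of other lineages were chosen after seeing the data.

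The share of mural cells that were *Cox4i2*-type was 32.0% in control when 2 mural genes sufficed, and 12.4% in control and 11.9% in *SM22-SmoM2* wounds when a lead of 2 genes was asked. Of genes 2-fold higher than in *Il6*-type cells in both libraries (32), there were 65 with 2 mural genes, 20 with 4, 21 with 0 UMIs of *Pdgfra*, *Pecam1* and *Sox10*, 17 at a lead of 2, 6 after thinning to 2500 UMIs, 63 at a minimum of 10 UMIs and 8 at 50. With a rule gene left out there were 20 without *Cyp4b1*, 17 without *Olfr558*, 9 without *Nrip2*, 81 without *Gm13889* and 94 without *Gucy1a3*. There were 15 without cells holding fibroblast transcripts and 20 without those of any other lineage. Genes 2-fold lower (44) numbered 96 with 2 mural genes, 12 after thinning, 73 at 10 UMIs, 19 at 50 UMIs, 70 without *Cox4i2* and 26 without *Il6* in the rule. The median of all genes, 0.06 and 0.07, was highest without *Gm13889* (0.16 and 0.12) and without *Gucy1a3* (0.17 and 0.14) in the rule.

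For *SM22-SmoM2* over control, higher genes of *Cox4i2*-type cells (125) numbered 54 at a lead of 2, 42 after thinning, 513 at 10 UMIs and 49 at 50. Lower genes (470) numbered 226, 152, 1043 and 217 under the same settings and 305 in male cells. In *Il6*-type cells higher genes (121) numbered 202 with 2 mural genes, 68 at a lead of 2, 43 after thinning, 521 at 10 UMIs, 64 at 50, 69 without cells holding fibroblast transcripts and 73 without those of any other lineage. Lower genes (430) numbered 268 with 4 mural genes, 266 with 0 UMIs of the excluded genes, 177 at a lead of 2, 100 after thinning, 1028 at 10 UMIs, 261 at 50, 230 without cells holding fibroblast transcripts and 222 without any other lineage. Counts thus moved with the number of UMIs asked of a gene, with the depth and with the choice of cells.

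The contractile median over *Il6*-type cells in control (0.47) was 1.01 with 2 mural genes, 0.17 with 4, 0.12 with 0 UMIs of the excluded genes, 0.17 at a lead of 2, −0.00691 after thinning, 0.20 without the deepest cells (above the 95th percentile of UMIs), 0.19 as a mean of cells, 0.16 without cells holding fibroblast transcripts and 0.17 without any other lineage. Its condition median (−0.63) was −0.27 after thinning. The fibrillar matrix median in control (−1.43) was −0.42 with 4 mural genes, −0.72 with 0 UMIs of the excluded genes, −0.060 after thinning, −0.86 as a mean of cells, −0.30 without cells holding fibroblast transcripts and −0.33 without any other lineage. Its condition median (−0.40) was 0.40 with 2 mural genes, 0.21 at a lead of 2 and 0.057 after thinning. The class I and interferon median in control (0.25) was 0.57 with 2 mural genes, 0.015 with 4, −0.00912 with 0 UMIs of the excluded genes, 0.051 after thinning, 0.022 as a mean of cells, −0.11 without cells holding fibroblast transcripts and −0.21 without any other lineage. Receptors, channels and pumps in control (0.39) were at 0.029 with 4 mural genes and −0.032 without cells holding fibroblast transcripts, and their condition median (−0.00) was 0.29 as a mean of cells. The cell cycle condition median (0.71) was 0.27 with 4 mural genes, 0.39 as a mean of cells, 0.28 without cells holding fibroblast transcripts and 0.23 without any other lineage. The immediate early condition median (−0.01) was −0.39 with 0 UMIs of the excluded genes and −0.28 without cells holding fibroblast transcripts, and its control median over *Il6*-type cells (−0.60) was −1.0 at a lead of 2. The cytokine condition median (−0.35) was 0.19 after thinning.

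Single genes changed sign as follows. Over *Il6*-type cells in control, *Mfap4* was at 1.77 with 4 mural genes, 0.15 after thinning, 0.45 without cells holding fibroblast transcripts and 0.36 without any other lineage. *Angpt1* was at −0.55 after thinning, *Igf1* at 0.28 without cells holding fibroblast transcripts, and *Cd34* at 0.74 and *Ly6a* at 0.011 without any other lineage. In *SM22-SmoM2* cells, *Ly6a* was at 1.08 at a lead of 2, 1.47 after thinning, 0.96 without *Gm13889* in the rule, 0.63 without cells holding fibroblast transcripts and 1.27 without any other lineage. *Lox* was at 1.67 at a lead of 2 and 0.36 without *Cox4i2*, *Metrnl* at 0.15 after thinning and 0.046 without *Cox4i2*, *Cd34* at 0.43 after thinning, *Mfap4* at 1.78 without *Gm13889* and *H2-M9* at 0.64 without itself. For *SM22-SmoM2* over control at a lead of 2, *Aif1* was at 2.07, *C1qa* at 1.07, *C1qb* at 0.27, *C1qc* at 0.17, *Ms4a7* at 1.07, *H2-Ab1* at 0.49, *Eln* at 0.90 and *Socs2* at 1.27, all from 0 or few UMIs. *H2-Ab1* was at 0.86 and *Lyz2* at 2.27 without cells holding immune transcripts, *H2-Ab1* was at 0.97 and *H2-Aa* at 0.80 without any other lineage, and *Smc2* was at −0.20 in male cells.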

Other observations

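In the tied mural cells, which belonged to neither group, *Cox4i2* stood at 793 CPM in the 111 tied cells of control wounds and at 839 CPM in the 35 of *SM22-SmoM2* wounds. *Gng11* stood at 830 CPM and 1272 CPM. *Cyp4b1* stood at 392 CPM in control tied cells, between the other groups, and at 648 CPM in *SM22-SmoM2* tied cells, above both.

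The α1-antitrypsin gene *Serpina1b* was higher in *SM22-SmoM2* wounds in each group of mural cells, at 18.5 CPM in control cells and 179 CPM in *SM22-SmoM2* *Cox4i2*-type cells, 9.43 CPM and 97.3 CPM in *Il6*-type cells, and 21.9 CPM and 296 CPM in tied cells. It had no UMI in fibroblasts or Schwann cells. The elastin gene *Eln* was lower in the *SM22-SmoM2* library both in *Cox4i2*-type cells (63.3 CPM and 4.97 CPM) and in *Il6*-type cells (390 CPM and 10.8 CPM), where 316 of 331 control UMIs lay in 26 cells that held transcripts of another lineage. Both patterns rest on 1 library per condition and were picked after their values were seen.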
